A study of Mus musculus with 6 samples.

Results

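Mitochondrial protein import and dynamics covers the machinery that brings nuclear-encoded proteins into mitochondria and the proteins that fuse, divide and fold mitochondrial membranes. Its members were chosen by gene symbol, as all probes for Timm, Tomm, Chchd, Mtx, Letm and prohibitin genes and for Samm50, Mfn1, Mfn2, Opa1, Fis1, Dnm1l and Immt. The rule gave 60 probes of 41 gene symbols among the 25697 probes and 18138 symbols of the array. Tests were limited to probes above background on 3 or more of the 6 arrays, and 45 member probes of 32 genes met this.

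The hearts came from male mice of the FVB strain (FVB/N in the methods) at postnatal day 6. There were 3 hSRY-ON and 3 hSRY-OFF hearts, each hybridized to 1 array of the Illumina MouseRef-8 BeadChip platform. hSRY-ON pups carried a single copy of the Signalox-hSRY transgene at the H11 locus, in which the ubiquitous CAG promoter drove FLAG-tagged human SRY after Cre had removed a DsRed2 stop cassette. Cre came from the oocytes of Ddx4-Cre mothers, so recombination took place in the whole body, and the hSRY-ON pups chosen for the arrays did not carry the Ddx4-Cre transgene themselves. hSRY-OFF denotes the unrecombined Signalox-hSRY transgene in the methods, whereas elsewhere the controls are littermates without that transgene, so the genotype of the control hearts is uncertain. hSRY-ON pups also grew poorly, and a change in the heart cannot be told apart from one that goes with growth or feeding.

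Most mitochondrial proteins are made in the cytosol and enter through the TOM complex of the outer membrane. From there the TIM23 complex passes precursors with a presequence to the matrix, the small TIM chaperones guide carrier proteins to TIM22, and Chchd4 folds cysteine-rich proteins of the intermembrane space. The mitofusins and Opa1 fuse the outer and the inner membrane, Dnm1l with receptors such as Fis1 divides them, and the MICOS complex holds the cristae junctions. Cardiac muscle is rich in mitochondria, and its organelles multiply and align with the myofibrils after birth.

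The arrays of the hSRY-OFF hearts detected 12138 to 12925 probes, and those of the hSRY-ON hearts 12704 to 13172. hSRY-ON heart 1 stood far apart in 1 of 4 lung markers, the airway secretory gene Scgb1a1. This gene read 13.74 on the log2 scale in that heart and 4.53 to 6.52 in the other 5. The surfactant genes Sftpc (4.83 in that heart, 4.67 to 5.32 in the others) and Sftpa1 (4.64 beside 4.56 to 5.07) did not stand apart. Sftpb was dim but highest in that heart at both of its probes, at 5.88 beside 4.66 to 5.70 and at 5.61 beside 4.51 to 5.02. Results are also given without this heart. The 9 cardiomyocyte genes were all detected, and their summed signal ran from 189100 to 201000 in the control hearts and from 171500 to 181300 with hSRY-ON. Of these 9 genes, 4 were called lower, beside 13.9% of all tested genes, namely Myh6, Ryr2, the troponin Tnni3 and the calcium pump regulator Pln. The other 5 (Myl2, Myl3, Actc1, Ttn and Atp2a2) were not called at their brightest probes. A dimmer Atp2a2 probe was lower (log2 fold change -0.53, limma adjusted p = 0.0324). Myl2 had intensities of 38682 to 47958, near the highest of the arrays (43036 to 48079), where a decrease may not be read.

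Signal of the import and dynamics genes was mostly lower in the hSRY-ON hearts. Of the 45 tested probes, 18 were lower and 1 was higher at an adjusted p under 0.05 (limma, Benjamini-Hochberg over all 12970 tested probes). Over all tested probes, 13.7% were lower and 13.8% were higher. When each gene was given by its brightest tested probe, 14 of 32 genes (43.8%) were lower and 1 (3.12%) was higher, beside 13.9% lower and 14.9% higher of all 9660 tested genes. The median log2 fold change of the 32 genes was -0.41, beside 0.00 over all tested genes, and 26 of the 32 were negative. In 19 of the 32 genes all 3 hSRY-ON hearts lay below all 3 hSRY-OFF hearts, and in 1 gene all lay above. These patterns occurred in 22% and 24.9% of all tested genes.

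The shift was present in each hSRY-ON heart. The median deviation of the 32 genes from their hSRY-OFF means was -0.47, -0.40 and -0.34 on the log2 scale in hSRY-ON hearts 1 to 3, and it was 0.02, -0.01 and -0.01 in the hSRY-OFF hearts. The number of calls depended on single hearts more than the size of the shift did. Without hSRY-ON heart 1, 7 of 45 probes were called lower and 1 higher, with 9.3% of all tested probes lower and a median of -0.38. Without hSRY-OFF heart 1, 7 of 43 probes were lower and 1 higher, with 8.38% of all tested probes lower and a median of -0.37. Both times the 7 probes were those of Mfn1 (2 probes), Mfn2, Immt, Timm44 (2 of 3 probes) and Tomm6, and the higher probe was that of Chchd6.

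**Figure D1:**
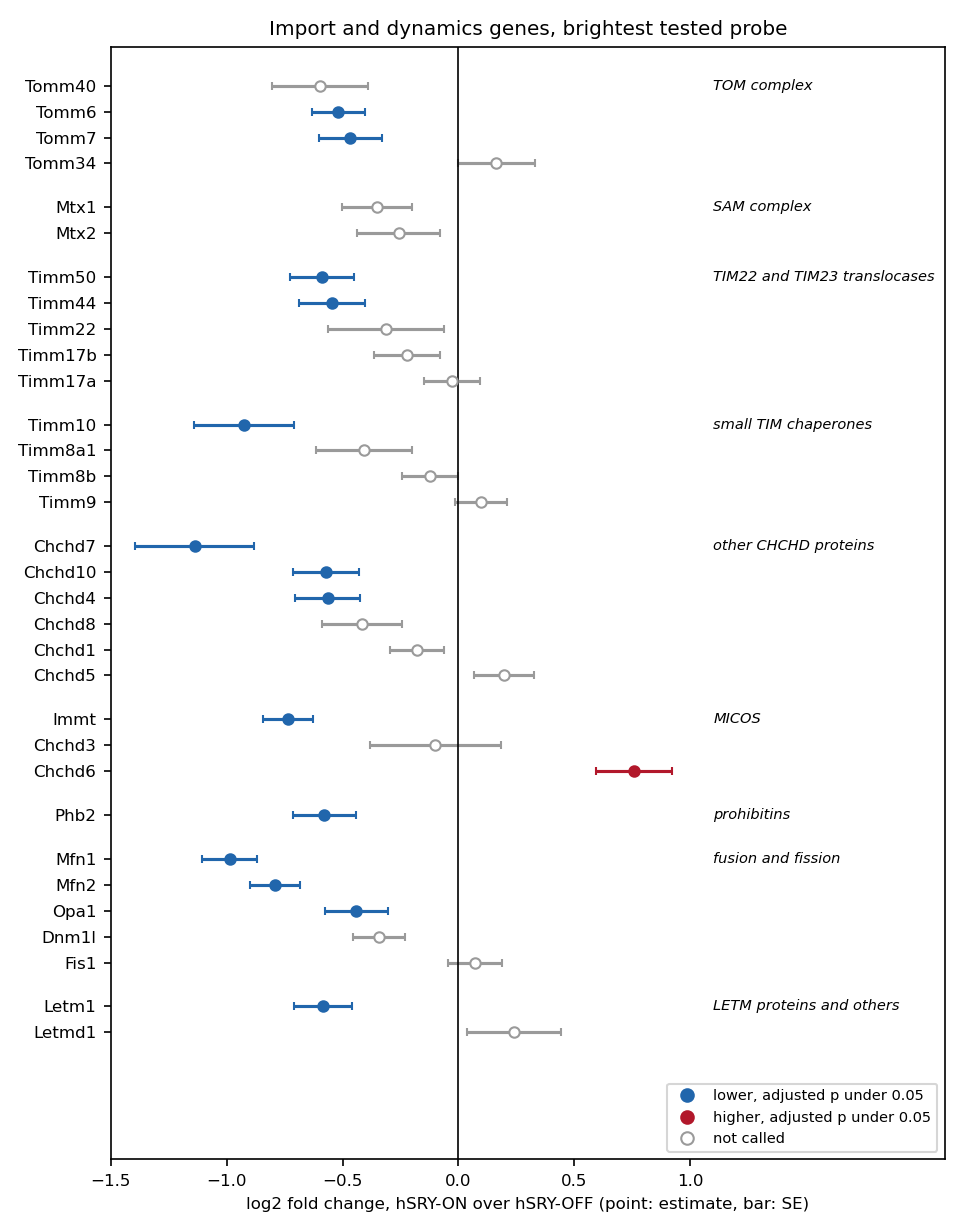
Log2 fold change (hSRY-ON over hSRY-OFF, horizontal axis) of the brightest tested probe of each of 32 import and dynamics genes, grouped by complex or role, with bars for the standard error (3 hearts per group). Blue points are the 14 genes called lower, the red point is Chchd6, the gene called higher, and open gray points are the 17 genes not called.

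The outer-membrane fusion proteins gave the clearest decreases. Mfn1, a mitofusin that tethers and fuses the outer membranes, had normalized log2 signals of 12.06, 12.10 and 12.06 in the hSRY-OFF hearts and of 10.95, 11.20 and 11.10 in the hSRY-ON hearts at its brightest probe. The groups were about 1 log2 unit apart, with a log2 fold change of -0.99 ± 0.12 (SE, n = 3 per group, limma adjusted p = 0.00121), or 50.5% of the hSRY-OFF signal. A further Mfn1 probe read 11.90, 11.83 and 11.71 against 10.76, 10.80 and 10.999, a log2 fold change of -0.96 ± 0.13 (limma adjusted p = 0.00167).

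Mfn2, the mitofusin that also links mitochondria to the endoplasmic reticulum, read 13.80, 13.77 and 13.77 in hSRY-OFF and 12.97, 12.95 and 13.04 in hSRY-ON hearts. The hearts of each group differed by far less than the groups did, and the log2 fold change was -0.79 ± 0.11 (SE, n = 3 per group, limma adjusted p = 0.00192). Both mitofusins were also called lower under every alternative of the processing that was run.

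Opa1, the dynamin-related protein that fuses inner membranes, read 8.47, 8.25 and 8.26 in hSRY-OFF and 7.71, 8.03 and 7.92 in hSRY-ON hearts at its brightest probe. All hSRY-ON hearts were lower, with a log2 fold change of -0.44 ± 0.14 (limma adjusted p = 0.0476), a call that was lost under 12 of 17 alternatives, among them the removal of any 1 heart. Its other tested probe overlapped between the groups, with 7.18, 6.72 and 6.69 against 6.56, 6.57 and 6.85 and a log2 fold change of -0.20 ± 0.17 (limma adjusted p = 0.413). One more probe of Opa1 and one of Mfn1 were detected on no array.

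Of the fission genes, Dnm1l encodes the dynamin-related GTPase that constricts mitochondria. Its brightest probe read 10.78, 10.76 and 10.74 in hSRY-OFF and 10.34, 10.39 and 10.52 in hSRY-ON hearts, and all hSRY-ON hearts lay lower. The log2 fold change of -0.34 ± 0.11 did not pass the threshold (limma adjusted p = 0.0575). A dimmer Dnm1l probe, with 9.03, 8.76 and 8.74 against 8.03, 8.35 and 8.53, did pass at -0.54 ± 0.16 (limma adjusted p = 0.0457). Its call was lost under 10 of 17 alternatives, among them the removal of hSRY-ON heart 1 (limma adjusted p = 0.134) and of each hSRY-OFF heart, whereas the brightest probe gained a call under 5 of 17.

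Fis1, an outer-membrane receptor of fission and mitophagy, read 12.33, 12.48 and 12.56 in hSRY-OFF and 12.51, 12.51 and 12.57 in hSRY-ON hearts at its brightest probe. The groups overlapped, and the log2 fold change was 0.07 ± 0.12 (limma adjusted p = 0.683). Its other probe read 11.58, 11.60 and 11.64 against 11.63, 11.45 and 11.73, with a log2 fold change of 0.00 ± 0.12 (limma adjusted p = 0.991). The sign of the Fis1 change was not the same under every scaling.

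The changes of the other dynamics genes were set against that of Fis1 within each array. The change of Mfn1 was 1.06 log2 units below that of Fis1, since the log2 difference between their probes moved by -1.17, -0.92 and -1.08 in the hSRY-ON hearts from its hSRY-OFF mean. For Mfn2 minus Fis1 it moved by -0.86, -0.88 and -0.85, for Opa1 minus Fis1 by -0.67, -0.34 and -0.52, and for Dnm1l minus Fis1 by -0.47, -0.42 and -0.36. In each of these 4 pairs all hSRY-ON hearts lay below all hSRY-OFF hearts, with an exact two-sided permutation p = 0.1, the smallest that 3 against 3 hearts allow. These were among 9 pairs chosen after the values had been seen, and the p adjusted over the 9 was 0.113, so that no pair passed a threshold of 0.05.

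**Figure D2:**
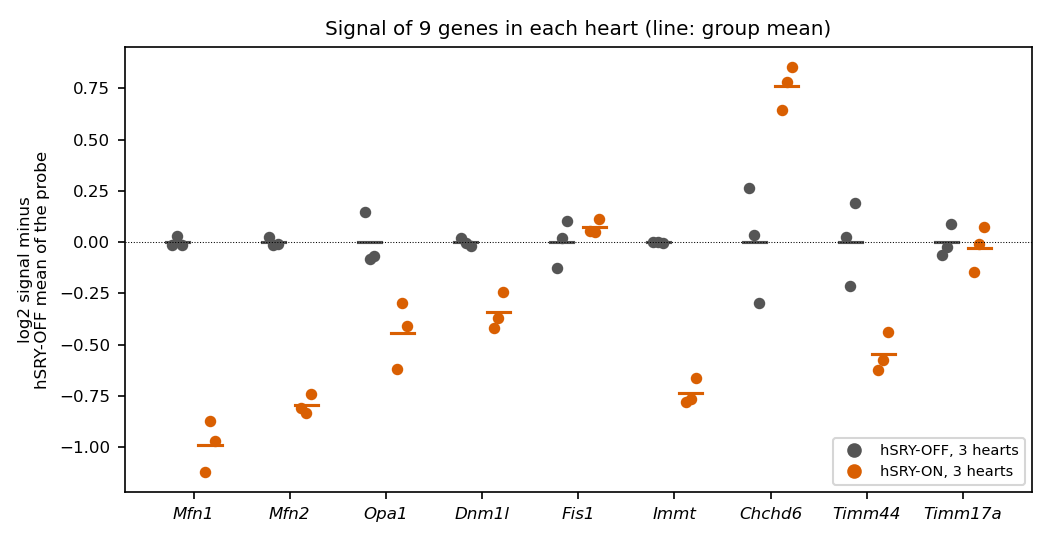
Normalized log2 signal of 9 genes in each heart, minus the hSRY-OFF mean of the same probe (brightest probe of each gene, lines mark the group means, 3 hearts per group). Gray hSRY-OFF and orange hSRY-ON points are separate for Mfn1, Mfn2, Opa1, Dnm1l, Immt, Chchd6 and Timm44 and overlap for Fis1 and Timm17a.

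Of the 3 MICOS subunits among the members, 1 fell, 1 rose and 1 was not called, where 13.9% of all tested genes were lower and 14.9% higher. Apoo (Mic26, 0610008C08Rik on the array) and Mic13 (2410015M20Rik), subunits that the symbol rule leaves out, were lower. Their log2 fold changes were -0.86 ± 0.22 and -0.72 ± 0.18 (limma adjusted p = 0.0243 and 0.0239), and they are counted among the further genes below. Immt (mitofilin, also Mic60), the core subunit at the cristae junctions, read 13.79 in each of the 3 hSRY-OFF hearts and 13.01, 13.03 and 13.13 in the hSRY-ON hearts. It fell to 60.1% of the hSRY-OFF signal, with a log2 fold change of -0.73 ± 0.11 (SE, n = 3 per group, limma adjusted p = 0.00268), and was called lower under all 17 alternatives.

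Chchd6 (Mic25) was the only member called higher. It read 9.30, 9.07 and 8.74 in hSRY-OFF and 9.69, 9.82 and 9.89 in hSRY-ON hearts, and no hSRY-ON heart reached down to the hSRY-OFF values. The log2 fold change was 0.76 ± 0.16 (limma adjusted p = 0.0127), or 169% of the hSRY-OFF signal. The call was lost under 1 alternative, no normalization between arrays, where the change was still positive. Chchd3 (Mic19) was dim, detected on 2 arrays of each group, with a log2 fold change of -0.10 ± 0.28 (limma adjusted p = 0.824). The log2 difference between Immt and Chchd6 moved by -1.42, -1.54 and -1.52 in the hSRY-ON hearts, against -0.26, -0.03 and 0.29 in the hSRY-OFF hearts (exact two-sided permutation p = 0.1). Between Immt and Chchd3 it moved by -0.22, -0.73 and -0.96, against 0.50, -0.09 and -0.41 in the hSRY-OFF hearts, and the groups overlapped (exact two-sided permutation p = 0.2).

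Of 5 tested genes of the TIM22 and TIM23 translocases, 2 fell, both of them parts of TIM23, beside 13.9% of all tested genes. Timm44, which anchors the Hsp70 motor at the matrix side of the channel, had 3 tested probes, and all 3 fell. The brightest read 10.67, 10.44 and 10.84 in hSRY-OFF and 10.03, 10.08 and 10.21 in hSRY-ON hearts (log2 fold change -0.55 ± 0.14, limma adjusted p = 0.0261). A further probe read 10.82, 10.58 and 10.82 against 9.78, 9.97 and 10.00 (-0.82 ± 0.13, limma adjusted p = 0.00372), and the last read 10.50, 10.34 and 10.47 against 9.54, 9.61 and 9.73 (-0.81 ± 0.12, limma adjusted p = 0.00262). The groups were separate at each probe. The brightest lost its call under 6 of 17 alternatives, among them the removal of hSRY-ON heart 1 (limma adjusted p = 0.0863). The other 2 probes kept theirs under every alternative.

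Timm50, the receptor that takes precursors from the TOM complex, read 10.29, 10.21 and 10.47 in hSRY-OFF and 9.75, 9.56 and 9.89 in hSRY-ON hearts. It fell by 0.59 ± 0.14 on the log2 scale (limma adjusted p = 0.0174). The channel subunits did not show a call. Timm17a, the main channel partner of Timm23, had 13.20, 13.24 and 13.36 in hSRY-OFF and 13.12, 13.26 and 13.34 in hSRY-ON hearts, with overlapping groups and a log2 fold change of -0.03 ± 0.12 (limma adjusted p = 0.894). Timm17b had a log2 fold change of -0.22 and Timm22, the carrier translocase, of -0.31, neither called, and Timm23 was detected on no array. The difference between Timm44 and Timm17a moved by -0.48, -0.57 and -0.51 in the hSRY-ON hearts (exact two-sided permutation p = 0.1).

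Of the TOM complex, Tomm6 and Tomm7, small subunits that set its assembly and stability, fell. Tomm6 read 9.54, 9.57 and 9.60 in hSRY-OFF and 9.10, 8.94 and 9.11 in hSRY-ON hearts (log2 fold change -0.52 ± 0.11, limma adjusted p = 0.0131). Tomm7 read 11.86, 12.01 and 11.71 against 11.28, 11.35 and 11.55 (-0.47 ± 0.14, limma adjusted p = 0.0389). The groups were separate for both, but Tomm7 lost its call under 7 of 17 alternatives.

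Tomm40, the channel itself, was close to the detection limit, with 5.90, 5.99 and 6.30 in hSRY-OFF and 5.06, 5.80 and 5.53 in hSRY-ON hearts. Its log2 fold change of -0.60 ± 0.21 was not called (limma adjusted p = 0.0685). Tomm34, a cytosolic cochaperone, was not called at either of its probes (log2 fold changes 0.16 and 0.11). Tomm22 and Tomm70a were detected on 1 array of each group and were not tested. The SAM complex, which inserts β-barrel proteins, had no call. Mtx1 had all hSRY-ON hearts below all hSRY-OFF hearts at 3 of 3 probes, with log2 fold changes of -0.35, -0.35 and -0.45 and limma adjusted p-values between 0.0682 and 0.125. Mtx2 had a log2 fold change of -0.26, and Samm50 was detected on no array.

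Of the small TIM chaperones among the members, 1 of 4 tested genes fell, beside 13.9% of all tested genes. Timm10, which forms a hexamer with Timm9 around carrier precursors, read 10.50, 10.43 and 9.83 in hSRY-OFF and 9.19, 9.16 and 9.63 in hSRY-ON hearts. The groups were separate, although the lowest hSRY-OFF and the highest hSRY-ON heart came close, and the log2 fold change was -0.93 ± 0.22 (limma adjusted p = 0.0176). The call of Timm10 was lost under 5 of 17 alternatives, among them the removal of hSRY-ON heart 1 (limma adjusted p = 0.0591). Its partner Timm9 was not called at any of 3 probes, with log2 fold changes of 0.10, -0.07 and -0.07. The difference between Timm10 and Timm9 moved by -1.08, -1.15 and -0.83 in the hSRY-ON hearts (exact two-sided permutation p = 0.1). Timm8a1 (-0.41) and Timm8b (-0.12 and -0.13) were not called, and Timm13 and Timm8a2 were not tested. Fxc1 (Timm10b), a small TIM that the symbol rule leaves out, was not called at its brightest probe (log2 fold change -0.18, limma adjusted p = 0.306). Its other probes were lower, at -0.45 and -0.38 (limma adjusted p = 0.0343 and 0.043).

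Chchd4 (Mia40), the oxidoreductase that folds cysteine-rich proteins of the intermembrane space, read 10.44, 10.36 and 10.48 in hSRY-OFF and 9.77, 9.71 and 10.11 in hSRY-ON hearts. The groups were separate and the log2 fold change was -0.56 ± 0.14 (limma adjusted p = 0.0227). Gfer, the sulfhydryl oxidase that reoxidizes Chchd4 and is no member by symbol, had a log2 fold change of 0.06 ± 0.12 (limma adjusted p = 0.736). Aifm1, the flavoprotein that binds Chchd4, fell by 1.09 ± 0.12 on the log2 scale (limma adjusted p = 0.000966) at its brightest probe. The difference between Chchd4 and Gfer moved by -0.77, -0.79 and -0.33 in the hSRY-ON hearts (exact two-sided permutation p = 0.1).

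Chchd proteins with the cysteine motif that Chchd4 oxidizes were mixed. Chchd7 had the largest decrease of the members, with 9.46, 9.38 and 8.48 in hSRY-OFF and 7.82, 8.04 and 8.04 in hSRY-ON hearts and a log2 fold change of -1.14 ± 0.26 (limma adjusted p = 0.0153). One hSRY-OFF heart lay nearly 1 log2 unit below the other two. The call was lost under 3 of 17 alternatives, among them the removal of hSRY-ON heart 1 (limma adjusted p = 0.0522). Chchd10, a cristae protein mutated in inherited myopathy and motor neuron disease, read 14.05, 14.00 and 13.73 against 13.19, 13.49 and 13.38. It fell by 0.57 ± 0.14 on the log2 scale (limma adjusted p = 0.0218). Chchd8 (-0.42), Chchd1 (-0.18) and Chchd5 (0.20) were not called, and Chchd2 was detected on no array.

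Phb2, which forms a ring scaffold with Phb in the inner membrane, read 12.22, 12.03 and 11.93 in hSRY-OFF and 11.40, 11.39 and 11.65 in hSRY-ON hearts. It fell by 0.58 ± 0.14 (log2, limma adjusted p = 0.0181), with separate groups, while Phb was detected on no array. Letm1, an inner-membrane protein of cation exchange, read 10.29, 10.25 and 10.00 against 9.53, 9.62 and 9.64. It fell by 0.58 ± 0.13 (log2, limma adjusted p = 0.0126). A dim Letm1 probe had 5.39, 5.53 and 5.52 against 5.01, 4.998 and 5.65 and was not called (log2 fold change -0.26 ± 0.19, limma adjusted p = 0.342), and 2 more were not tested. Letmd1 was not called (0.24), and Letm2 was detected on no array. Without hSRY-ON heart 1, the limma adjusted p was 0.0664 for Phb2, 0.0501 for Letm1, 0.0749 for Chchd10, 0.0791 for Chchd4, 0.0527 for Timm50 and 0.123 for Tomm7, with log2 fold changes between -0.59 and -0.41. The removal of hSRY-OFF heart 1 also cost each of these genes its call. Of the 17 alternatives, the call was lost under 6 for Phb2, 4 for Letm1, 5 for Chchd10, 5 for Chchd4 and 3 for Timm50.

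Of the 10 genes with more than 1 tested probe, the probes had the same call in 7 and differed in 3 (Opa1, Dnm1l and Letm1). In each of those 3, the probe that was not called had a change of the same sign. For Mfn1 and Timm44 all tested probes were called lower. Probes of different sequence on a gene can read different transcripts, which these arrays do not resolve.

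**Figure D3:**
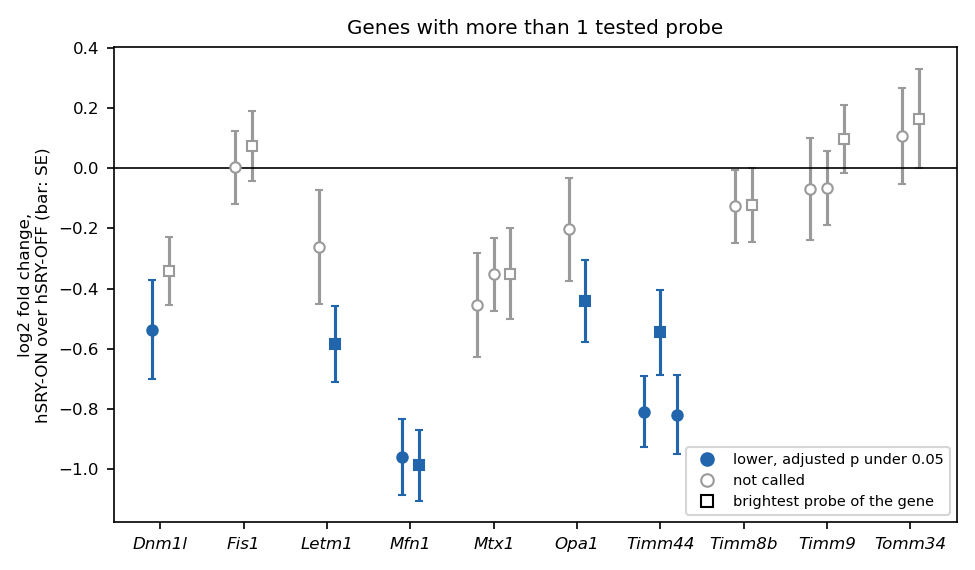
Log2 fold change (hSRY-ON over hSRY-OFF, vertical axis, bars are standard errors, 3 hearts per group) of every tested probe for the 10 genes with more than 1, ordered from the dimmest to the brightest (square). Filled blue symbols are called lower, and the calls of Dnm1l, Letm1 and Opa1 differ between probes.

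The symbol rule leaves out genes that work in the same processes, and a list of them was set beside the members. Of 54 tested genes, 23 (42.6%) were lower, 2 (3.7%) were higher and 29 were not called, beside 13.9% lower and 14.9% higher of all tested genes, and the median log2 fold change was -0.43. Without hSRY-ON heart 1 the counts were 11 lower and 1 higher, with 9.3% of all tested probes lower. The largest decreases were in Mtfp1 (1700020C11Rik on the array), an inner-membrane protein of fission, Fam73b (5730472N09Rik), a mitoguardin of outer-membrane fusion, and Fundc2. Mtfp1 read 8.86, 8.84 and 8.74 in hSRY-OFF and 7.08, 7.53 and 7.41 in hSRY-ON hearts, a log2 fold change of -1.47 ± 0.14 (limma adjusted p = 0.000595). Fam73b changed by -1.36 ± 0.14 and Fundc2 by -1.17 ± 0.32. The Fundc2 value depended on the processing and on 1 heart, at -0.44 without background correction, -0.68 with an offset of 50 and -0.74 without hSRY-OFF heart 2.

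The 2 higher genes were Fam73a (C030011O14Rik), the related mitoguardin, with a log2 fold change of 0.81 ± 0.18, and Mtch1, an outer-membrane protein, with 0.50 ± 0.12. The mitoguardins moved in opposite directions. Fam73a read 6.28, 6.65 and 6.95 in hSRY-OFF and 7.41, 7.59 and 7.33 in hSRY-ON hearts, and Fam73b read 10.37, 10.42 and 10.16 against 9.17, 8.90 and 8.80. The size of the Fam73a change depended on the processing, at 0.39 without background correction. Its call was lost under 1 of 17 alternatives, no normalization between arrays. By function, 5 of 14 motor and partner genes, 5 of 8 folding and processing genes, 5 of 13 proteases and quality control genes, 2 of 3 cristae genes and 6 of 16 dynamics and mitophagy genes were lower, beside the 13.9% of all tested genes. The matrix chaperonin Hspd1 fell by 0.86 ± 0.17 and its cochaperonin Hspe1 by 0.96 ± 0.26 on the log2 scale. Without hSRY-ON heart 1, Fundc2, Mtch1 and Hspe1 lost their calls (limma adjusted p = 0.0873, 0.0729 and 0.0971). Of the 17 alternatives, these calls were lost under 6, 7 and 7. Hspd1, Hspe1, Aifm1, Apoo, Mic13 and Fxc1 were named after their values had been seen.

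Further genes of the same families stood on the array under older symbols. Timm21 (1700034H14Rik), which docks TIM23 to TOM, was lower at 4 of 4 probes, with log2 fold changes of -0.69, -0.63, -0.47 and -0.60. Opa3 (D630048P19Rik) was lower, with a log2 fold change of -0.56, and Timm29 (1810026J23Rik) was not called. They were looked up after the values of the members had been seen and are in none of the counts.

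Other groups of mitochondrial genes were read on the same arrays, where 13.9% of all tested genes were lower and 14.9% higher. Of mitochondrial ribosomal proteins, 40 of 67 (59.7%) were lower and 0 higher, and their median log2 fold change was -0.48. Of complex I subunits, 23 of 32 (71.9%) were lower and 0 higher, with a median of -0.55. Of the Slc25 carriers, which are clients of the TIM22 route, 5 of 31 (16.1%) were lower and 2 (6.45%) higher, with a median of -0.20, so that the share of lower carriers was near that of all tested genes. The difference between these lists and the import and dynamics genes was not tested.

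**Figure D4:**
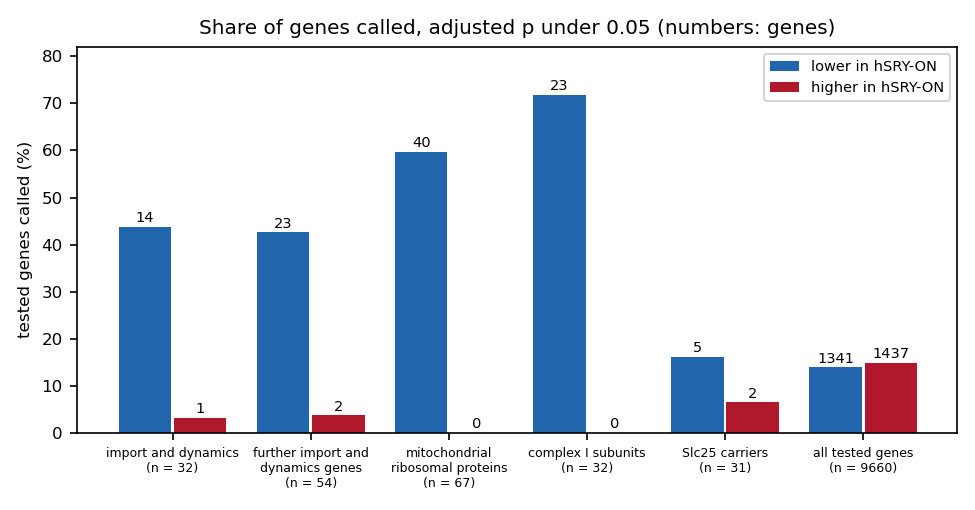
Share of tested genes (%, vertical axis, brightest probe of each gene) called lower (blue) or higher (red) in hSRY-ON hearts at an adjusted p under 0.05, for the import and dynamics genes and 5 comparison sets, with the number of genes above each bar. Of the import and dynamics genes 43.8% were lower, between complex I subunits at 71.9% and Slc25 carriers at 16.1%.

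Markers of some other cells moved with the groups, on arrays where 13.9% of all tested genes were lower and 14.9% higher. The 6 macrophage genes, all detected on some array, summed to 1304 to 1460 in the control hearts, against 2453 to 2916 with hSRY-ON, and 4 of 6 were called higher. The 4 smooth muscle genes had 25370 to 30680 against 38560 to 42560, with Cnn1 detected on no array and 2 of 3 tested genes (Acta2 and Tagln) higher, while Myh11 lay lower in all hSRY-ON hearts and was not called (log2 fold change -0.42, limma adjusted p = 0.114). The 4 skeletal muscle genes, of which Myh4 and Tnnt3 were detected on no array, had 3012 to 4710 against 276 to 539. The 2 tested genes, Acta1 (log2 fold change -3.25) and Tnni2 (-1.91), were lower, and Acta1 gave most of the sum. Whether Acta1 was read in skeletal or heart muscle was not tested. The 4 liver genes, with Alb detected on no array, had 53.3 to 63.9 against 216 to 437. Only Ttr was tested, and it was higher (log2 fold change 2.18). Ttr, Apoa1 and Apoa2 were detected on 3, 2 and 1 hSRY-ON arrays and on no hSRY-OFF array. The 5 brown fat genes, with Elovl3 detected on no array, overlapped between the groups, at 1841 to 2555 against 983 to 3440, with the highest value in hSRY-ON heart 1. Of these, 2 of 3 tested genes were called higher, Ucp1 (log2 fold change 3.67, limma adjusted p = 0.0395) and Adipoq (1.48, limma adjusted p = 0.0265), and Cidea was not called (-1.05, limma adjusted p = 0.0691). Ucp1 was detected on only 1 hSRY-OFF array, and its groups overlapped, with 4.64, 5.03 and 8.88 against 10.81, 8.80 and 9.94. The summed signals of the endothelial (21120 to 22800 against 20350 to 21900), fibroblast (31440 to 33710 against 28730 to 32030), erythroid (48990 to 61240 against 50770 to 55440) and atrial (93710 to 95520 against 72850 to 96040) lists overlapped between the groups. Single genes in them were called. Of 6 tested endothelial genes, Cdh5 (log2 fold change -0.72) and Tek (-0.45) were lower and Emcn (0.53) was higher. Tcf21 (0.76) was higher of 7 fibroblast genes. Hbb-b1 (-1.29) was lower of 5 erythroid genes and Myl4 (-0.99) of 4 atrial genes. The part of these markers in the lower signal of the import and dynamics genes was not tested. In whole hearts, fewer cardiomyocytes and less of a transcript per cardiomyocyte cannot be told apart.

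Promoters were examined as a feature that the symbol rule did not use. RefSeq promoter windows (GRCm38.p6) were found for 37 of the 41 symbols, 1 of them under its current symbol, and the 250 bases before the start site were searched on both strands. The core of the sites bound by GABP (NRF-2) and other ETS factors, CCGGAAG, was in 17 of 37 genes (45.9%), beside 7.83% of the 27025 genes with a window and 15.0% of the 6189 tested array genes with one. Of the 37 genes only 30 were tested, and Timm23, Timm8a2, Tomm22 and Tomm70a, which have the core, were not. The tested array genes were matched by their array symbol only. The NRF-1 core GCATGCGC was in 2 members (5.41%), Opa1 and Timm13, beside 2.56% of all genes and 5.25% of the tested array genes. The short site of estrogen-related receptors, AAGGTCA, was in 2 (5.41% beside 4.7% and 3.6%), and the SRY and SOX core AACAAT in 3 (8.11% beside 10.9% and 6.53%), namely Chchd10, Dnm1l and Timm17b.

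The GABP and ETS core was present whether or not a gene was called. It was in 4 of 12 genes called lower (Immt, Mfn1, Phb2 and Timm10) and in 9 of 17 not called, Fis1 among them, but not in Chchd6. None of the 4 searched letter strings contains another. A match of letters in such a window is a description and shows no binding. The windows of Mfn1 (chr3:32529232-32529481, plus strand), Immt (chr6:71831070-71831319, plus strand), Fis1 (chr5:136953025-136953274, plus strand, the first of 2 windows), Opa1 (chr16:29579084-29579333, plus strand) and Chchd6 (chr6:89595653-89595902, minus strand) are shown because these genes carry the contrast between decreased, not called and increased members. Each is written 5′ to 3′ on the gene's strand and ends at the base before the start site, and capitals mark the GABP and ETS core in Mfn1, Immt and Fis1, a pair of overlapping NRF-1 cores in Opa1, and the short estrogen-related receptor site, on the opposite strand, in Chchd6.
Mfn1: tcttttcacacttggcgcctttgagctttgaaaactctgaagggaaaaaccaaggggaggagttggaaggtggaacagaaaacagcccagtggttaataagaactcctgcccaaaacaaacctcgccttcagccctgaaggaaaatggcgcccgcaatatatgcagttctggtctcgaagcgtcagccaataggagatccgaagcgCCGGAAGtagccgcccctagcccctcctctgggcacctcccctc
Immt: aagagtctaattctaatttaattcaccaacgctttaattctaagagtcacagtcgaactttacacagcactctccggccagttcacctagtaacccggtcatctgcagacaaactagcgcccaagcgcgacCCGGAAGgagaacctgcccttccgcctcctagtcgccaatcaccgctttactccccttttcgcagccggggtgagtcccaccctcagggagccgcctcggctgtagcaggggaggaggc
Fis1: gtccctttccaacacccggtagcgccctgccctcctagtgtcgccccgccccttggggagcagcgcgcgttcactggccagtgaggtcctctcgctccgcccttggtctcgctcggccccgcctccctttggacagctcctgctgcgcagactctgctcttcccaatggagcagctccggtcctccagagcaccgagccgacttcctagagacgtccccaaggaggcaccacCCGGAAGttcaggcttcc
Opa1: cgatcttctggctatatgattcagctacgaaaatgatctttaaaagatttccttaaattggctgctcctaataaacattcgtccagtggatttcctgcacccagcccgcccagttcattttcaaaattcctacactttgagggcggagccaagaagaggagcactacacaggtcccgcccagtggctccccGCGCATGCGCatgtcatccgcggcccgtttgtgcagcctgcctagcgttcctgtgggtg
Chchd6: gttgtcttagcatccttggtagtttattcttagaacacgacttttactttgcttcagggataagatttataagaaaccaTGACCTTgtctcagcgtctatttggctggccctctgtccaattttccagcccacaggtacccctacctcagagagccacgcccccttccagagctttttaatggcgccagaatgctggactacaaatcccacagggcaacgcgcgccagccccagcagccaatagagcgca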

How the data were processed

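Members and gene lists were chosen with earlier results of these data known. Total RNA of each heart was labeled with biotin and hybridized to a single-color array. The files deposited by the authors hold, for every probe and heart, an average bead intensity without normalization and a detection p-value against negative control beads. All deposited columns were mapped to a labeled heart (0 were left over). The submitters' processing notes name limma, the methods name TCC without settings, and a genome build is not given in the sources used here.

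With R 4.3.3 and limma 3.58.1, the background was corrected by neqc's normal-exponential model from the detection p-values, an offset of 16 was added, and arrays were quantile normalized and put on the log2 scale. Probes detected at p under 0.05 on at least 3 of 6 arrays were fitted with lmFit and eBayes on group alone, two-sided, with Benjamini-Hochberg adjustment over all of them. The steps were tested on simulated data, against a pass mark per fold size that was set after a first, overall mark had been narrowly missed. A gene is given by its brightest tested probe. Values in each heart are printed for called members among the 20 largest changes and for the tested genes of a fixed set (Mfn1, Mfn2, Opa1, Dnm1l, Fis1, Immt, Samm50, Tomm20, Tomm40, Timm23, Timm44, Chchd4, Chchd10, Phb and Phb2), and of the further genes the 3 largest called changes in each direction are named. Samm50, Timm23 and Phb of the fixed set were detected on no array, and their values are not printed. Tomm20 has no probe under that symbol in the table used here, and Timm17a and Chchd6 were added for comparison. Older symbols were matched through RefSeq. Differences between 2 probes of an array were compared with exact permutation tests. Figures were drawn with matplotlib 3.10.9.

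The methods describe biological triplicates and the labels number the hearts, without stating litters, and the number of arrays limits the precision. Hearts with the same number did not deviate together (correlations of -0.02, 0.04 and -0.07), so the numbers were not used as pairs. The alternatives were no background correction, an offset of 50, no, median or TCC-like scaling, 3 probe filters, other variance models, a replicate block and the removal of each heart.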

Additional observations from a re-analysis of the deposited data

How the results depend on the processing

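The count of 18 member probes lower became 8 (0 higher) with no normalization between arrays and 11 with scaling to the median of detected probes, and it ranged from 7 to 17 when a heart was left out. With no normalization the median of all tested probes shifted to -0.12, and 8.99% of all tested probes were lower and 5.64% higher. With median scaling it shifted to 0.09, with 9.48% lower and 18.2% higher, where quantile normalization gave 13.7% and 13.8%. The median log2 fold change of the member genes, -0.41, was negative under every alternative. It was -0.32 without background correction, -0.35 with an offset of 50, -0.51 with no normalization, -0.30 with median scaling, -0.31 with no probe filter, -0.35 over all tested probes, and -0.47 to -0.37 when a heart was left out. Of the further genes, 23 lower and 2 higher became 13 and 0 with no normalization, 13 lower with median scaling, 1 higher with TCC-like scaling, and 11 to 19 lower and 1 to 3 higher when a heart was left out. With the replicate block, 12 member probes were lower and 1 higher, and 15 further genes were lower and 1 higher, where 11% of all tested probes were lower and 10.9% higher. Among the members, the calls of Mfn1, Mfn2, Immt and 2 of 3 Timm44 probes were kept under all 17 alternatives, and of the 8 further genes followed, those of Mtfp1, Fam73b, Aifm1 and Hspd1. The cause of these differences was not tested.

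Signs changed only for genes that were not called. With no normalization, Fis1 was at -0.10 and -0.071 (2 probes) and Timm9 at -0.036. With median scaling, Chchd3 was at 0.044 and Timm17a at 0.040. When a heart was left out, Chchd3 ranged from -0.34 to 0.13, Timm17a from -0.077 to 0.033 and the dimmer Fis1 probe from -0.062 to 0.077.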
